A study of Homo sapiens with 2 samples.

Results

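The genes described here make cholesterol and fatty acids: 31 genes named by symbol, of which 8 encode enzymes of the mevalonate pathway, 11 enzymes from squalene synthesis to cholesterol, 5 regulators or sterol carriers and 7 enzymes of fatty acid synthesis. Of these, 30 were matched by symbol to identifiers among the 57820 genes of the count table, and the same 30 were matched in the second table of the series, whose columns were not analysed here. ACACA, the cytosolic acetyl-CoA carboxylase, was not matched through the name tables and has no value below. The data were read counts per gene from total RNA of T47D, an established human cell line of estrogen receptor-positive ductal breast carcinoma derived from a metastatic site. All cells carried the Y537S mutation of ESR1, which keeps the estrogen receptor active without hormone, and all were kept in hormone-deprived medium and received control siRNA at 25 nM. Only this group, with its 2 libraries called replicate 1 and replicate 2, was analysed, so no condition is compared with another. The column names give the line, the receptor residue and the replicate number but not the siRNA, and the labels do not state whether the mutant line is 1 clone or whether the replicates were separate cultures.

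Cells build cholesterol from acetyl-CoA through mevalonate, isoprenoid diphosphates and squalene, and they build fatty acids from the same precursor through malonyl-CoA. Both routes are controlled by sterol regulatory element-binding proteins, transcription factors that SCAP escorts out of the endoplasmic reticulum when sterols are scarce and that INSIG proteins hold back when sterols are plentiful. In estrogen receptor-positive breast cancer cells these pathways supply membranes and isoprenoids for growth.

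The libraries held 41370662 reads in replicate 1 and 37198274 in replicate 2. All 9 luminal epithelial markers, among them KRT8, KRT19, FOXA1 and ESR1, had at least 1 CPM (reads scaled to library size) in each library. None of the 2 liver, 3 adipocyte, 3 basal, 3 immune and 2 matched endothelial markers did, and of 5 mesenchymal and fibroblast markers COL1A1 did. The summed adipocyte marker level was 0.202 and 0.165 TPM in replicates 1 and 2, against 2664 and 2485 TPM for the luminal markers. PLIN1, LEP and ADIPOQ, genes of lipid-storing fat cells, had between 0 and 18 reads in a library. Bulk RNA cannot tell fewer cells with a transcript from less transcript per cell.

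All 30 matched genes reached 1 CPM in each library, against 60.9% of 19250 nuclear protein-coding genes. TPM, the level used below, divides reads by the summed exon length of a gene and by the library's total of such values. The median of the 30 genes was 32.0 TPM in replicate 1 and 25.6 in replicate 2, where the median of the 11718 detected protein-coding genes was 9.89 and 8.61 TPM. Together the 30 genes took 0.425% of the reads of replicate 1 and 0.378% of those of replicate 2. Their means ran from 3.39 TPM for CYP51A1 to 199 TPM for SCD. There were 7 genes at 50 TPM or more and 6 under 10 TPM. Protein-coding genes held 29.8% of the TPM scale in replicate 1 and 26.4% in replicate 2, so a TPM value reads lower in replicate 2 for that reason alone. The libraries are therefore compared further below on TMM-scaled reads.

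**Figure D1:**
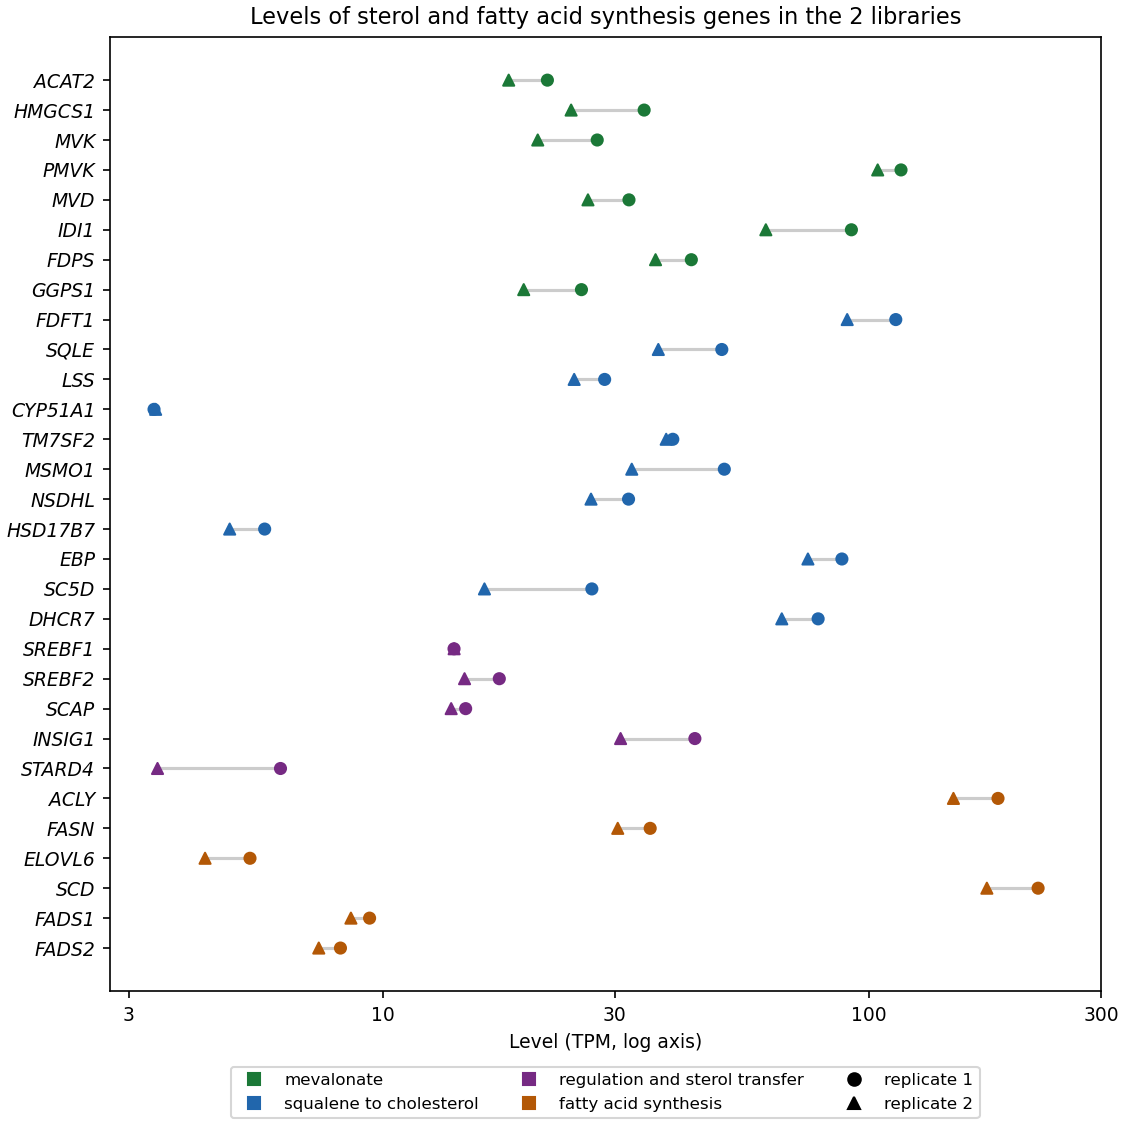
Level in TPM (log axis) of the 30 matched genes, ordered by pathway, with a circle for replicate 1 and a triangle for replicate 2. SCD, ACLY, PMVK and FDFT1 stand at the right, and CYP51A1, STARD4, ELOVL6 and HSD17B7 at the left.

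The mevalonate enzymes had a median of 33.3 TPM in replicate 1 and 25.4 in replicate 2, and PMVK and IDI1 were the highest. ACAT2, the cytosolic thiolase that joins acetyl-CoA units, had 21.8 and 18.1 TPM in replicates 1 and 2. HMGCS1, which makes hydroxymethylglutaryl-CoA, had 34.5 and 24.4 TPM. The thiolase was the lower of the pair in both libraries over all exon bases. Over exon bases that no other row covers the order turned, with 45.3 and 37.8 TPM for ACAT2 and 39.6 and 28.02 TPM for HMGCS1.

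Of the 3 enzymes that turn mevalonate into isopentenyl diphosphate, the phosphomevalonate kinase PMVK (ENSG00000163344.5, hg19 chromosome 1, 154897210 to 154909467) stood out with 116 and 104 TPM. Mevalonate kinase, MVK, had 27.6 and 20.8 TPM. The decarboxylase MVD had 32.1 and 26.4 TPM. MVK was 4.59-fold below PMVK in TPM (log2 ratio -2.20 ± 0.175, SD, n = 2), more than genes of that abundance differed between the libraries. PMVK has 1280 exon bases and MVK 5618, and in CPM, where length is not divided out, the log2 ratio was -0.066 and within the replicate spread. MVD and MVK were within that spread (log2 ratio 0.28 ± 0.089), although from replicate 2 alone, at 0.34, MVD was above it.

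Farther down, the isomerase IDI1 had 92.0 TPM in replicate 1 and 61.3 in replicate 2. FDPS, which makes farnesyl diphosphate, had 43.1 and 36.4 TPM. GGPS1, which extends farnesyl to geranylgeranyl diphosphate for protein prenylation, had 25.6 and 19.5 TPM. FDPS was 1.77-fold above GGPS1 (log2 ratio 0.83 ± 0.11), beyond the replicate spread.

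The enzymes from squalene to cholesterol had a median of 39.5 TPM in replicate 1 and 32.5 in replicate 2, and the 3 highest were FDFT1, EBP and DHCR7. FDFT1, squalene synthase, the first step given over to sterols, had 114 and 90.2 TPM. SQLE, the squalene epoxidase that is a rate-controlling step, had 49.8 and 36.9 TPM. LSS, which closes the sterol rings as lanosterol, had 28.6 and 24.7 TPM. These 3 consecutive enzymes formed a descending series in both libraries, with FDFT1 2.36-fold above SQLE (log2 ratio 1.24 ± 0.072) and SQLE 1.61-fold above LSS (0.69 ± 0.16). The step from SQLE to LSS depends on exon length, 4305 against 7238 bases, and in CPM its log2 ratio was -0.062.

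The lanosterol demethylase CYP51A1 had 3.38 and 3.41 TPM, the lowest mean of the 30 genes. Other rows of the table cover 82.2% of its exon bases, and by the counter's default reads there are not assigned. Its level may therefore be too low. Rows for 3 pseudogenes of CYP51A1 together held 125 and 93 reads, 29.7% of its reads. Reads alike in the gene and a pseudogene can be missing from either row. TM7SF2, a sterol reductase, had 39.5 and 38.3 TPM. LBR, the lamin B receptor, which carries the same reductase activity, had 43.0 and 31.3 TPM. The ratio of LBR to TM7SF2 turned from 1.09 in replicate 1 to 0.818 in replicate 2 and lay within the replicate spread (log2 ratio -0.083 ± 0.29), and in CPM it was 0.54 on the log2 scale and beyond that spread.

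MSMO1, NSDHL and HSD17B7 act in turn to remove methyl groups from the sterol. MSMO1 had 50.4 TPM in replicate 1 and 32.5 in replicate 2. NSDHL, on the X chromosome, had 32.0 and 26.8 TPM. HSD17B7 had 5.71 and 4.84 TPM, from 624 and 529 reads. MSMO1 exceeded NSDHL 1.38-fold (log2 ratio 0.47 ± 0.27), beyond the spread with both libraries, but from replicate 2 alone the log2 ratio of 0.28 was not. The table also has a row for its pseudogene HSD17B7P2, with 222 and 125 reads, 30.1% of the reads of HSD17B7, and reads alike in both can be missing from either row, so the low level is uncertain.

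The isomerase EBP, also on the X chromosome, had 87.9 and 74.9 TPM. SC5D, the desaturase that follows it, had 26.9 TPM in replicate 1 and 16.2 in replicate 2. DHCR7, which makes cholesterol from its immediate precursor, had 78.6 and 66.1 TPM. EBP exceeded SC5D 3.27-fold in replicate 1 (95% counting interval 3.14 to 3.41) and 4.63-fold in replicate 2 (4.41 to 4.86), so the desaturase stood below the enzymes before and after it in both libraries.

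The 5 regulators and sterol carriers had a median of 14.8 and 14.0 TPM. SREBF1, which codes for the factor tied mainly to fatty acid synthesis, had 14.0 TPM in each library. SREBF2, which codes for the factor tied mainly to cholesterol synthesis, had 17.4 and 14.7 TPM. Their ratio lay within the replicate spread (log2 ratio of SREBF2 to SREBF1 0.19 ± 0.17), although from replicate 1 alone, at 0.31, it passed. The escort protein SCAP had 14.8 and 13.8 TPM, within the spread of SREBF2 in TPM (log2 ratio -0.16 ± 0.098), and in CPM, at -0.42, below it.

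INSIG1, which retains the SCAP complex and is itself induced by the sterol regulatory factors, had 43.8 TPM in replicate 1 and 30.8 in replicate 2. Its relative INSIG2 had 3.19 and 2.38 TPM. INSIG1 was thus 13.3-fold above INSIG2 (log2 ratio 3.74 ± 0.059). STARD4, a protein that carries sterols between membranes, had 6.15 TPM in replicate 1 and 3.44 in replicate 2, 7.99-fold below INSIG1 (log2 ratio -3.00 ± 0.24).

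Fatty acid synthesis held both the highest and some of the lowest members. SCD (ENSG00000099194.5, hg19 chromosome 10, 102106881 to 102124591), the desaturase that makes oleate, reached 223 TPM in replicate 1 and 175 in replicate 2, with 95% intervals for counting error of 220.3 to 225 and 173 to 177. It ranked 163 of 19250 protein-coding genes by mean level. ACLY, the citrate lyase that supplies cytosolic acetyl-CoA to both pathways, had 184 and 149 TPM and ranked 223. SCD and ACLY were within the replicate spread of each other over all exon bases (log2 ratio 0.25). Over unshared exon bases SCD had 344 and 270.2 TPM and ACLY 179.8 and 145.8 TPM, a gap wider than that spread.

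FASN, the fatty acid synthase that builds palmitate, had 35.5 and 30.4 TPM. It was 5.05-fold below ACLY (log2 ratio -2.34 ± 0.059) and 6.01-fold below SCD (log2 ratio of SCD to FASN 2.59 ± 0.091), both beyond the spread. ELOVL6, which lengthens palmitate to stearate, had 5.33 and 4.31 TPM. FADS1 and FADS2, the desaturases of polyunsaturated fatty acids, had 9.39 and 8.59 TPM and 8.18 and 7.38 TPM. The rows of FADS1 and FADS2 overlap on opposite strands of chromosome 11 and share 490 exon bases, and their levels lay within the replicate spread (log2 ratio of FADS2 to FADS1 -0.21 ± 0.015).

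SCD exceeded SCD5, with 0.638 and 0.514 TPM, 349-fold in replicate 1 (279 to 442) and 340.1-fold in replicate 2 (265 to 444). IDI1 exceeded IDI2 368-fold (194 to 805) and 138-fold (85.0 to 242), where IDI2 had 9 and 16 reads and 75.1% of its exon bases lie under other rows. Over unshared exon bases the mean log2 ratio of IDI1 to IDI2 was 6.09, against 7.82 over all exon bases. ELOVL6 was 10.3-fold below ELOVL5, an elongase of polyunsaturated fatty acids (log2 ratio -3.36 ± 0.0079). ACAT2 was 1.48-fold below the mitochondrial thiolase ACAT1 (log2 ratio -0.56 ± 0.09), but over unshared exon bases the log2 ratio turned to 0.49. Of 20 gene pairs compared, 15 differed by more than the replicate spread. That spread measures how the same gene differs between the libraries, and the share of all gene pairs beyond it was not computed.

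**Figure D2:**
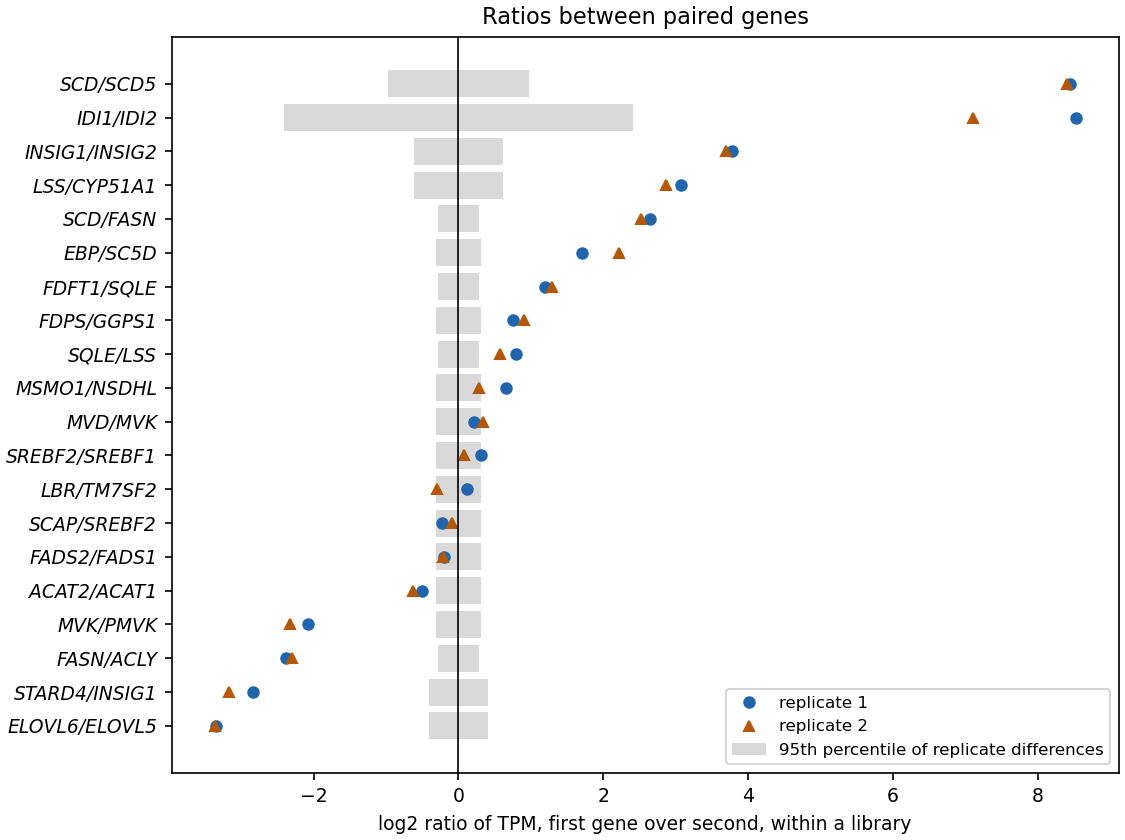
log2 ratio of TPM between the genes of each pair within replicate 1 (circles) and replicate 2 (triangles), over grey bars for the replicate spread, the 95th percentile of differences between the libraries among genes as abundant as the lower partner. SCD over SCD5 has the highest mean log2 ratio, 8.43, and ELOVL6 over ELOVL5 the lowest, -3.36. Both points of SREBF2 over SREBF1 lie near 0, at log2 values of 0.31 and 0.07.

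Ordered by mean level, most neighbours could not be told apart. Of 29 steps from a gene to the next lower one, 6 exceeded the replicate spread. These were the steps from ACLY to PMVK, from FDFT1 to EBP, from DHCR7 to SQLE, from ACAT2 to SREBF2, from SREBF1 to FADS1 and from FADS2 to HSD17B7. The stretch from SQLE down to ACAT2 held 14 genes with no step beyond the spread. The step from ACAT2 to SREBF2 was 0.315 on the log2 scale, against a spread of 0.306. That step and the lower end of the stretch rest on the level of ACAT2 over all exon bases. Over unshared exon bases ACAT2 had 41.5 TPM, CYP51A1 18.6 TPM and SREBF2 16.2 TPM, and the order was not recomputed on that scale. Between the libraries 12 of the 30 genes kept their rank, and no gene moved by more than 4 ranks.

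For 7 of the 30 genes other rows cover more than 10% of the exon bases on either strand, and reads in such bases are not counted for either gene. CYP51A1 shares 3349 of 4074 exon bases, mostly with LRRD1, a row with no read in either library. ACAT2 shares 53.0%, mostly with SOD2 on the other strand. SCD shares 36.8%, with a row that had no reads. FDPS, IDI1, LSS and HMGCS1 share between 15.0% and 18.6%. When reads were divided by the unshared exon bases alone, CYP51A1 rose from 3.39 to 18.6 TPM, ACAT2 from 19.97 to 41.5 TPM and SCD from 199 to 307 TPM. On that scale LSS exceeded CYP51A1 by 0.76 on the log2 scale, against 2.97 over all exon bases. SCD, already the highest of the 30 genes, remained so, and its log2 ratios were 9.09 to SCD5 and 3.25 to FASN, against 8.43 and 2.59. A further 14 genes, among them SQLE, MSMO1, INSIG1, ACLY and FASN, share no exon base.

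**Figure D3:**
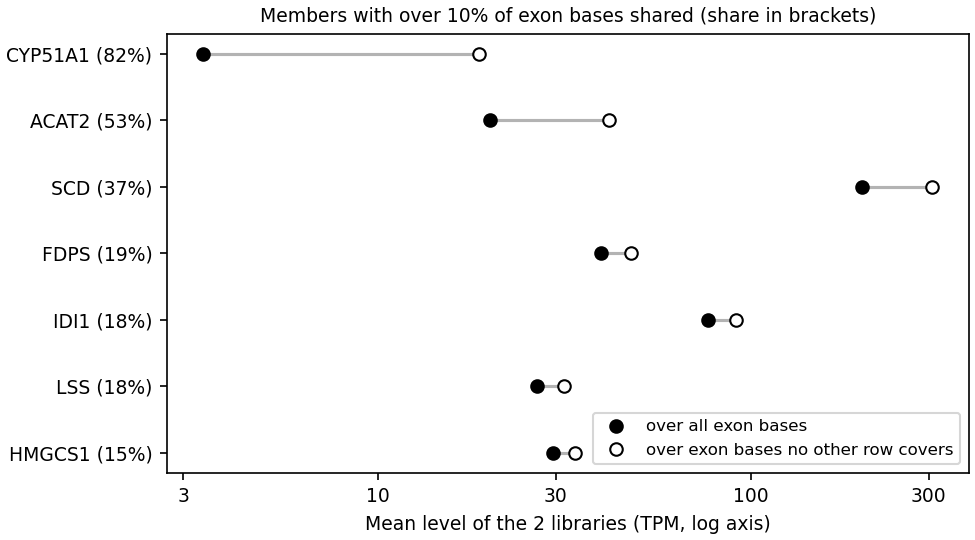
Mean TPM of the 2 libraries (log axis) for the 7 genes with over 10% of exon bases under other rows, over all exon bases (filled) and over unshared bases (open). The gap is widest for CYP51A1, from 3.39 to 18.6 TPM, and under 1.3-fold for FDPS, IDI1, LSS and HMGCS1.

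The libraries differed in the level of a part of the sterol genes. On TMM-scaled reads replicate 1 exceeded replicate 2 by over 25% for 6 of 30 genes, and for 7.53% of 14668 genes at 1 CPM or more on average. Replicate 2 exceeded replicate 1 by over 25% for none of the 30, and for 10.3% of all those genes. Both shares take in genes with few reads. Of 11718 detected protein-coding genes, 624 were lower and 837 higher in replicate 2 past that limit. Among genes at 30 to 100 CPM the 95th percentile of absolute log2 differences was 0.31, below the limit of 0.32. In all, 23 of 30 genes had a log2 ratio of replicate 2 to replicate 1 below 0, against 50.6% of all genes. The median log2 ratio of the 30 genes was -0.086 and that of all genes -0.0026. This compares a library with another of the same group and no conditions, and it has no replicate check.

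The 6 genes came from 3 of the 4 groups. STARD4 (ENSG00000164211.8, hg19 chromosome 5, 110831731 to 110848288) had 927 reads in replicate 1 and 518 in replicate 2, a log2 ratio of -0.67 (95% counting interval -0.82 to -0.51). SC5D (ENSG00000109929.5, chromosome 11, 121163162 to 121179403) had 3968 and 2387 reads, a ratio of -0.56 (-0.63 to -0.49). MSMO1 (ENSG00000052802.8, chromosome 4, 166248775 to 166264312) had 3861 and 2492 reads, a ratio of -0.46 (-0.53 to -0.38). All 3 lay below the 5th percentile of all genes, which was -0.39.

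IDI1 (ENSG00000067064.6, chromosome 10, 1085848 to 1095110) had 8749 and 5837 reads, a log2 ratio of -0.41 (-0.46 to -0.36). INSIG1 (ENSG00000186480.8, chromosome 7, 155089486 to 155101945) had 4239 and 2983 reads, a ratio of -0.33 (-0.40 to -0.27). HMGCS1 (ENSG00000112972.10, chromosome 5, 43289497 to 43313614) had 4294 and 3040 reads, a ratio of -0.32 (-0.39 to -0.26), just past the limit of 0.32. SQLE, at -0.26, lay nearest on the other side of the limit. At 1.5-fold STARD4 was the 1 gene of 30 that was lower, against 2.26% of all genes, and none was higher, against 3.52%.

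The other sterol enzymes shifted less. MVK and GGPS1 had log2 ratios of -0.23 and -0.22, and FDFT1 -0.16. DHCR7, EBP, NSDHL, HSD17B7, FDPS and LSS lay between -0.082 and -0.034, and ACAT2 and MVD at -0.090 and -0.11. PMVK, at 0.015, had an interval that held 0, and TM7SF2 stood at 0.13. CYP51A1, with its 365 and 368 reads, stood at 0.19 with an interval of -0.027 to 0.40.

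Among regulators, SREBF2, at -0.063, and SCAP, at 0.076, had intervals that held 0, and SREBF1 was higher in replicate 2 with a ratio of 0.18 (0.10 to 0.25). No fatty acid gene passed the 25% limit in either direction. SCD, ELOVL6 and ACLY had ratios of -0.18, -0.13 and -0.13, FASN -0.047, and FADS1 and FADS2 0.047 and 0.026. The 6 genes were picked for their difference between the libraries. Their larger differences than those of SREBF1, SREBF2 and SCAP therefore follow from that choice.

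**Figure D4:**
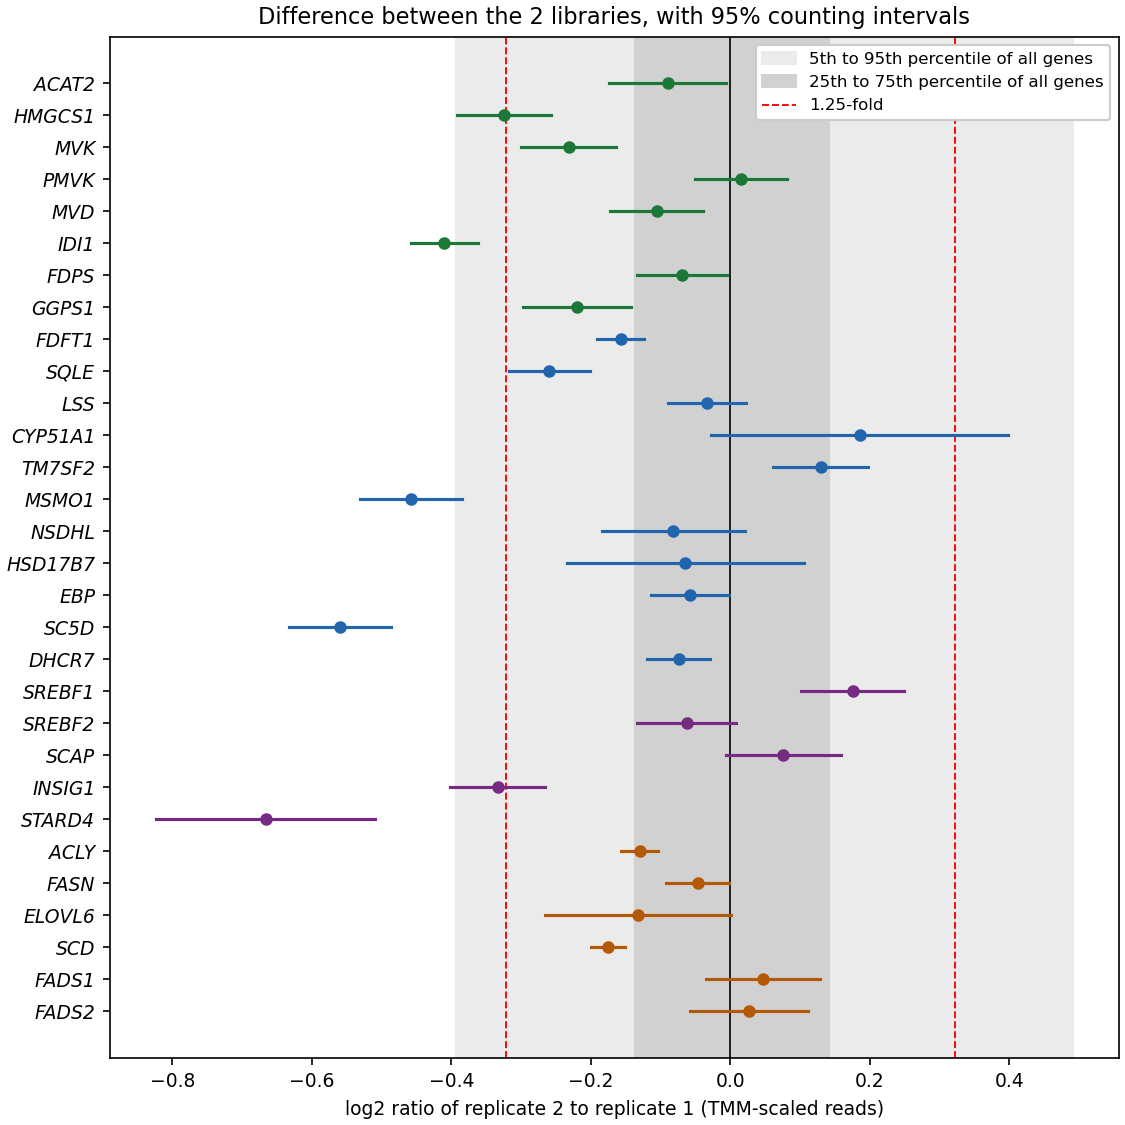
log2 ratio of replicate 2 to replicate 1 of the 30 genes on TMM-scaled reads, with 95% counting intervals, over bands for the middle 50% and middle 90% of all genes and dashed lines at a 25% excess of either library. STARD4, SC5D, MSMO1 and IDI1 lie left of the 5th percentile of all genes at -0.39, and no gene lies right of the upper line.

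Other genes of lipid metabolism were read from 2 lists. Of 23 further synthesis genes 20 were detected. None was lower and 1 was higher in replicate 2 past the 25% limit, against 7.53% and 10.3% of all genes. LBR lay at -0.28. MBTPS1, a protease that releases the sterol regulatory factors, had 71.6 and 63.7 TPM and a log2 ratio of 0.0076, and the second protease gene MBTPS2 had 6.68 and 5.84 TPM. ACSS2, which makes acetyl-CoA from acetate, had 16.0 and 13.9 TPM, and the citrate carrier gene SLC25A1 91.8 and 88.1 TPM. Malic enzyme ME1 had 5 reads in replicate 1 and none in replicate 2, where a count of 0 allows up to 3 reads, or 0.0806 CPM.

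Of 22 genes of sterol and lipid uptake, export and storage 19 were detected, and 4 were lower and 1 higher past that limit, against 7.53% and 10.3% of all genes. The 4 lower in replicate 2 were ACSL4 (log2 ratio -0.53), LPCAT3 (-0.47), LPIN1 (-0.42) and SOAT1 (-0.33), which activate fatty acids, remodel phospholipids, make diacylglycerol and esterify cholesterol. ACSL4 had 151 and 93 reads and LPCAT3 379 and 243. Both lay within the replicate spread of genes at 3 to 10 CPM, where the 95th percentile of absolute log2 differences was 0.62. At 10 to 30 CPM that percentile was 0.41, so SOAT1 lay within it and LPIN1, with 637 and 421 reads, just beyond. ABCG1, a sterol exporter induced by oxysterol receptors, was the 1 gene higher, with 549 and 677 reads and a log2 ratio of 0.48 (0.31 to 0.64). ABCA1, the related exporter, had 130 and 140 reads and a ratio of 0.28 with an interval of -0.074 to 0.64. The receptor genes NR1H2 and NR1H3 stood at 0.038 and 0.13.

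Protein-coding genes took 81.7% of the reads in replicate 1 and 79.2% in replicate 2, and over protein-coding genes the median log2 ratio went from 0.028 in the shortest of 4 equal classes of exon length to -0.031 in the longest. The 30 genes had medians from -0.18 to -0.034 in these 4 classes. The part of library make-up and exon length in the difference was not tested.

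Promoter windows of 27 of the 31 genes, ACACA included, were found in the RefSeq table of GRCh38.p14, as 38 windows from 250 bases before to 50 after a gene start, so some genes have several windows. ACAT2, FASN, FDFT1 and SQLE had no entry. Windows were searched on both strands for the core of the sterol regulatory element written TCACNCCAC, the E-box CACGTG, the CCAAT box CCAAT, which binds NF-Y, and the GC box GGGCGG, which binds SP1. CCAAT was found in 65.8% of the 38 windows and 21 of 27 genes, against 34.6% of all 35116 windows and 39.7% of their 27305 genes. GGGCGG was found in 86.8% and in 26 genes, against 45.0% of all windows and 48.3% of their genes. These shares were not limited to genes detected here. CACGTG was found in 13.2% of the windows, in INSIG1, LSS, SC5D and SCAP, against 7.26%. The core TCACNCCAC was found in SREBF2 alone, in 2.63% of the windows, against 1.13%. A match is a stretch of letters and not a measured site, and factors bind related sequences that this search does not hold.

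The 6 genes lower in replicate 2, and SREBF2 as the gene with the sterol element core, are shown by the 200 bases before their start, from the window with the most matches where a gene has several. Each is written 5′ to 3′ on the strand of the gene, with its GRCh38.p14 position, and the capitals mark matches to any of the 4 motifs on either strand.
STARD4, chr5:111512536-111512735, minus strand: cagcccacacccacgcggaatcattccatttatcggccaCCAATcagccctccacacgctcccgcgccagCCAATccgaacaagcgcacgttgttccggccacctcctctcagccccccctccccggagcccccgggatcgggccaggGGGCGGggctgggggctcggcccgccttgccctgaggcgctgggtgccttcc
SC5D, chr11:121292571-121292770, plus strand: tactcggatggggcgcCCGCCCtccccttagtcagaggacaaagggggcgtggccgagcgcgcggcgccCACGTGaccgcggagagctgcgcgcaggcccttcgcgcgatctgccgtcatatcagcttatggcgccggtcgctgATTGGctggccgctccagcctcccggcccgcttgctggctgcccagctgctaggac
MSMO1, chr4:165327469-165327668, plus strand: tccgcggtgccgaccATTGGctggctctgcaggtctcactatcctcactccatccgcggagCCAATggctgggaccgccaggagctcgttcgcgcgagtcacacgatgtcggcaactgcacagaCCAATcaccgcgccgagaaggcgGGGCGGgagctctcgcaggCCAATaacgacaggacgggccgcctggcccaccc
IDI1, chr10:1048887-1049086, minus strand: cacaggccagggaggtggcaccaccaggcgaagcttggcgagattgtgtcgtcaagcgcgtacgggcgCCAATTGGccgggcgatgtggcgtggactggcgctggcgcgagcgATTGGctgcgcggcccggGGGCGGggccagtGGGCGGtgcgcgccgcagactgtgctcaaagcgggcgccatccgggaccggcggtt
INSIG1, chr7:155297678-155297877, plus strand: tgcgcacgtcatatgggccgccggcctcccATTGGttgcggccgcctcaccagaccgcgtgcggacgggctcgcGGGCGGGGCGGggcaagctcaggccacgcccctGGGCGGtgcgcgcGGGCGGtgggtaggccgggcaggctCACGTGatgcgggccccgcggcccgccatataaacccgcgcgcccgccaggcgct
HMGCS1, chr5:43313413-43313612, minus strand: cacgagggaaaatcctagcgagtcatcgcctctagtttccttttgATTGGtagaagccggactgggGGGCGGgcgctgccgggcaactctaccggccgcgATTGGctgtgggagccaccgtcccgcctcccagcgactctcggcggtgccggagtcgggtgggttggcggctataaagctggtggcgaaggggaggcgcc
SREBF2, chr22:41832905-41833104, plus strand: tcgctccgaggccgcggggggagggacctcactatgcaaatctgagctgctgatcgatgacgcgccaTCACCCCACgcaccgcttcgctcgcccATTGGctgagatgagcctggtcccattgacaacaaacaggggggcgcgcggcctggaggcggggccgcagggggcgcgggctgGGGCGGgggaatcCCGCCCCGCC

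All 7 sequences hold both a CCAAT box, here often as its reverse complement ATTGG, and a GC box. Of the 27 genes with a window, 21 have the first and 26 the second, so neither is particular to these 7. MSMO1 has 4 CCAAT boxes, from positions -185, -139, -76 and -34, counted from the gene start with bases before it negative. IDI1 has 3, of which 2 overlap on opposite strands, from -132 and -129. HMGCS1 and STARD4 have 2 each, and INSIG1, SC5D and SREBF2 have 1. SREBF2 carries the sterol element core from -133 and a CCAAT box from -106. INSIG1 and SC5D add an E-box, from -55 and -131.

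Across the 26 genes with both a window and a value, the 20 with CCAAT had a median log2 ratio of replicate 2 to replicate 1 of -0.12 and the 6 without it 0.061. The latter were CYP51A1, ELOVL6, FADS1, PMVK, SCAP and SREBF1. For the E-box the medians were -0.18 for the 4 genes with it and -0.078 for the 22 without. For the GC box they were -0.074 for 25 genes and -0.082 for the 1 gene without it, NSDHL, and for the sterol element core -0.063 for SREBF2 and -0.082 for the other 25. These are medians of few genes and carry no test, and for CYP51A1 the ratio rests on the small unshared part of its exons. All 6 genes picked above as lower in replicate 2 are among the 20 with CCAAT, and the same medians over all genes were not computed.

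**Figure D5:**
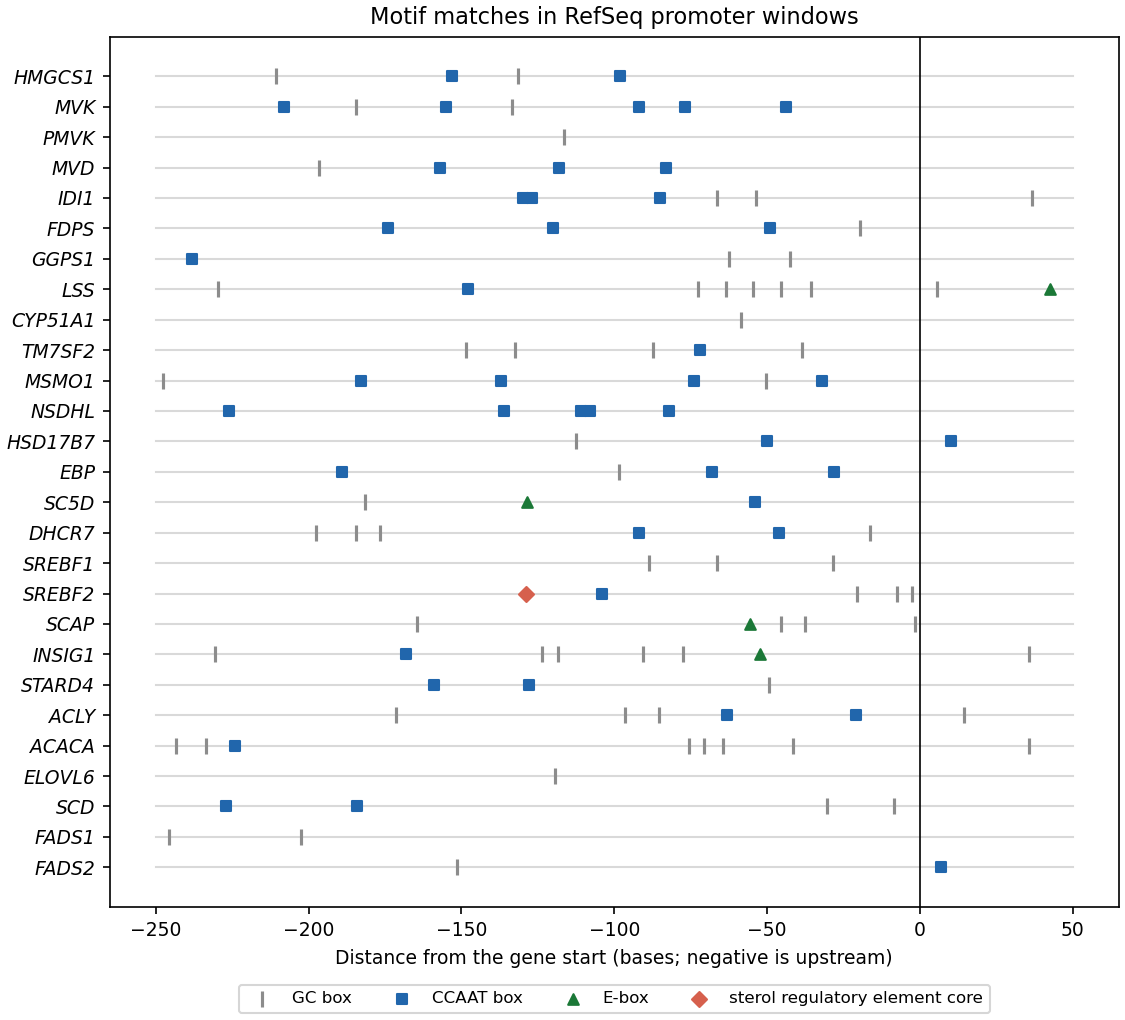
Positions of motif matches against distance from the gene start in 1 RefSeq window for each of the 27 genes, with the start at 0. Squares for the CCAAT box appear in 21 genes and the single diamond for the sterol regulatory element core in SREBF2.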

How the data were processed

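Total RNA of T47D cells with ESR1 Y537S and control siRNA went into stranded libraries after removal of ribosomal RNA, per the labels. The authors deposited whole-number counts per gene from featureCounts 2.0.2, with GENCODE release 19 as annotation, per the file headers, with no strand, paired-end or multimapping option recorded. HISAT2 and hg19 (GRCh37) are named in the submitters' processing notes. The deposited table also gives exon lengths. Reads that fit several rows are then left out, and antisense reads cannot be told apart. If reads were paired, mates were counted singly, which makes intervals too narrow. Another 8 columns of per-sample values match no sample described here and were not used.

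CPM and TPM were computed over all 57820 genes, of which 52338 had a symbol (90.5%). Gene types came from GENCODE release 29. Ratios between libraries used TMM effective library sizes (edgeR 4.0.16) over genes at 1 CPM or more on average. Intervals are exact 95% Poisson or conditional binomial intervals and cover counting error only. A pair's ratio exceeded the replicate spread when both intervals excluded equality in 1 direction and the mean passed the 95th percentile of differences between the libraries among genes as abundant as the lower partner. The scripts were tested on simulated counts. With 1 group no test between conditions was run. The genes, lists, pairs and motifs were chosen with earlier results of these data known. All matched members are named, and other genes come from fixed lists. Of 24 fixed pairs 20 were compared, since 2 needed ACACA and 2 are not reported here. Alternatives were other scalings (DESeq2 1.42.0 size factors, total counts), folds, filters, CPM and single libraries, and, added after seeing the data, unshared exon bases, protein-coding TMM and genes with under 10% shared bases.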

Additional observations from a re-analysis of the deposited data

How the results depend on the processing

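All 30 matched genes stayed detected at 0.5 CPM, at 5 CPM and in either library alone. Their median level was 28.8 TPM (25.6 and 32.0 from single libraries). It was 88.3 in CPM and 102 TPM when scaled to nuclear protein-coding genes. The count of genes lower in replicate 2 was 6 of 30 with DESeq2 size factors, total counts, protein-coding TMM and no filter. At 1.5-fold it was 1 of 30. It was 4 when the 7 genes with over 10% shared exon bases, which include IDI1 and HMGCS1, were left out. None was higher under any of these settings. Another scaling shifted the median of all genes by at most 0.020 downward on the log2 scale.

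Of the 20 pairs, 3 turned direction. The log2 ratio of SQLE to LSS was -0.062 in CPM and that of LBR to TM7SF2 0.54 in CPM. The ratio of ACAT2 to ACAT1 was 0.49 over unshared exon bases. In the first 2 the change follows from exon length, which CPM does not divide out, and in the third from the shared bases left out. No paired analysis was possible because there was 1 group. Leaving out a library leaves no difference between libraries to compute.

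Depth limits HSD17B7, STARD4 and CYP51A1 most among the 30 genes, at 365 to 927 reads in replicate 1. Overlapping or copied sequence limits the levels of CYP51A1, ACAT2, SCD and HSD17B7.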
